A study of Arabidopsis thaliana with 6 samples.

Results

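Aux/IAA proteins and auxin response factors (ARFs) are the repressors and the DNA-binding factors of nuclear auxin signalling in plants. The 44 member genes are a list of 29 Aux/IAA and 15 ARF loci of Arabidopsis thaliana, chosen by locus identifier, and their transcript values were summed per locus. They are 44 of 27655 loci in the deposited table, with 90 transcripts in all, 53 of Aux/IAA and 37 of ARF genes. ARF genes outside the list were not examined, so ARF counts, ranks and sums below cover the 15 listed loci only. Root tip RNA was sequenced in 3 wild-type and 3 sos2-2 samples. The sos2-2 mutant is named for SOS2, the protein kinase that with the calcium sensor SOS3 activates sodium export in the Salt Overly Sensitive pathway. Seedlings of both genotypes were 6 days old and had been held in liquid medium with 100 mM NaCl for 12 hours. Both groups were on salt, so the comparison is between genotypes on salt, and a difference that exists without salt cannot be told apart from it. The labels do not describe the lesion in sos2-2. The series' design text names gl1 as the comparison line, but the labels leave unsaid whether the wild-type samples carry a gl1 allele. Nothing in the labels ties replicates to separate cultures, so p-values measure no more than the spread of these 6 samples, and that spread may be technical.

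Aux/IAA proteins bind ARFs and recruit TOPLESS corepressors, which keeps auxin response genes silent. Auxin joins a TIR1/AFB receptor, the F-box subunit of an SCF ubiquitin ligase, to a short degron in the Aux/IAA, and the repressor is then degraded. ARFs with a glutamine-rich middle region (ARF5, ARF6, ARF7, ARF8 and ARF19) activate transcription in transfected plant cells, and the other ARFs are mostly repressors there. Many Aux/IAA genes are themselves transcribed in response to auxin, so the family is both a brake on the response and one of its readouts. In the root, pairs of Aux/IAA and ARF proteins are known for embryonic root formation (IAA12 with ARF5), lateral root initiation (IAA14 with ARF7 and ARF19) and the size of the meristem (IAA3).

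The degron is shown first because its presence divides the Aux/IAA family. A core of glycine, tryptophan and a pair of prolines followed by valine, leucine or isoleucine was encoded in 23 of the 29 loci. It was not found in IAA20, IAA30, IAA31, IAA32, IAA33 or IAA34, which are known as the noncanonical members. The lines below give the coding stretch of the 8 degron members with the strongest rises, then of 3 that were not called (IAA7, IAA26 and IAA27). They were read from the TAIR10.1 genome on the coding strand, with the 5 core codons in capitals and 4 codons on each side.
IAA29: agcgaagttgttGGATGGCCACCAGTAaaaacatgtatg
IAA19: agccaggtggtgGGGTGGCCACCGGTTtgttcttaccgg
IAA5: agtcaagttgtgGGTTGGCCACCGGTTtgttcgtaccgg
IAA6: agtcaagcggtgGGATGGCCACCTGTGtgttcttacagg
IAA18: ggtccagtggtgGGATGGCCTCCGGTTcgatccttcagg
IAA16: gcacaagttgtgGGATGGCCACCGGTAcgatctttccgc
IAA13: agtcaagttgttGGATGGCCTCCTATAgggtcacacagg
IAA2: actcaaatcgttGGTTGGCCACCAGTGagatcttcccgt
IAA7: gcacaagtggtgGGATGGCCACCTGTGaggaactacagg
IAA26: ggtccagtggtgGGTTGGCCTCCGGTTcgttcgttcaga
IAA27: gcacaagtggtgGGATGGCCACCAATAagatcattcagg
These stretches lie at chr4:15583939-15583977, plus strand (IAA29), chr3:5264304-5264342, plus strand (IAA19), chr1:5366269-5366307, minus strand (IAA5), chr1:19673317-19673355, minus strand (IAA6), chr1:19306228-19306266, plus strand (IAA18), chr3:1289724-1289762, minus strand (IAA16), chr2:14115227-14115538, minus strand (IAA13), chr3:8181381-8181419, minus strand (IAA2), chr3:8195565-8195603, plus strand (IAA7), chr3:5613656-5613694, minus strand (IAA26) and chr4:14324648-14324686, minus strand (IAA27). All are coding sequence within 1 exon except that of IAA13, which spans an intron.

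Small RNAs are the other sequence feature that divides the members. The microRNA miR160 targets ARF10, ARF16 and ARF17, and miR167 targets ARF6 and ARF8. Their mature sequences follow with the seed, bases 2 to 8, in capitals, and then the target sites with the bases paired to the microRNA in capitals, counted without G:U pairs.
miR160a: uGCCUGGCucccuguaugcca
ARF10: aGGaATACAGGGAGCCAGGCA
ARF16: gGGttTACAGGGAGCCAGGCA
ARF17: TGGCATgCAGGGAGCCAGGCA
miR167a: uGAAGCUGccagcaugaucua
ARF6: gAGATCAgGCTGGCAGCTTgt
ARF8: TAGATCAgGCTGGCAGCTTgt
The mature sequences are at chr2:16340282-16340302, plus strand and chr3:8108090-8108110, plus strand, in the RefSeq annotation of TAIR10.1. The sites are in coding sequence at chr2:12115741-12115761, plus strand (ARF10), chr4:14704141-14704161, minus strand (ARF16), chr1:29274189-29274209, plus strand (ARF17), chr1:10686478-10686498, minus strand (ARF6) and chr5:14633841-14633861, plus strand (ARF8). Of 21 bases, 19 paired in ARF10, 18 in ARF16 and 20 in ARF17. For miR167a 17 of 21 paired in ARF6 and 18 in ARF8.

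Transcript levels are TPM, shares of transcripts that are corrected for transcript length and sum to 1000000 in each sample, so that levels of different genes can be compared. Sequencing depth is unknown. Between 18812 and 19141 loci reached 1 TPM in a sample, and sos2-2 replicate 2 had the most transcripts listed at 0 (15504, against 11005 to 12825 in the other samples). The 6 meristem markers fixed for the check of the tissue (PLT1, PLT2, SCR, SHR, WOX5 and JKD) were present in all 6 samples, with sums of 82.8 to 97.4 TPM in wild type and 82.5 to 137 TPM in sos2-2, and 0 of 6 were called. Markers of other cell types moved with genotype. All 5 markers of dividing cells fell, from a sum of 135 to 205 TPM in wild type to 25.7 to 40.5 TPM in sos2-2. Of 6 endodermis markers the 5 CASP genes fell and MYB36 rose. The sum of all 6 went from 656 to 862 TPM to 124 to 333 TPM. Both phloem markers rose, from a sum of 8.02 to 9.46 TPM to 40.6 to 71.8 TPM. Falls outnumbered rises among root hair markers (3 against 1 of 5) and among xylem markers (3 against 1 of 5). Of 4 root cap markers 2 rose and 1 fell, and 4 of the 6 photosynthetic markers tested fell. Of all tested genes 31.3% rose and 34.1% fell, so these are small counts beside a high background. No marker list was at 0 in either genotype. In bulk samples, fewer cells of a type and less RNA per cell cannot be told apart, and the part of these shifts in the member values below was not tested.

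Most Aux/IAA transcripts were higher in sos2-2 than in wild type on salt, while the ARFs went both ways. Of the 29 Aux/IAA loci 26 had a mean of at least 1 TPM and were tested, and 16 of these rose, 2 fell and 8 were not called (limma on log2(TPM + 1), adjusted p under 0.05 over all 19527 tested genes). Of the 15 ARF loci, all tested, 4 rose, 5 fell and 6 were not called. The background was high: 65.4% of all tested genes were called, 31.3% higher and 34.1% lower. The median log2 fold change (sos2-2 minus wild type) was 0.61 over the tested Aux/IAA loci, 0.00 over the ARFs and -0.05 over all tested genes. The genotypes did not overlap for 22 members that were higher in sos2-2 (35.0% of all tested genes) and 7 that were lower (37.1%), and 72.1% of all tested genes did not overlap in either direction. IAA5, IAA6, IAA20, IAA33, ARF3 and ARF11 had a mean under 1 TPM in 1 genotype. They passed the filter on low values through the other genotype, so these counts and medians describe the tested loci only. A rise of at least 1 on the log2 scale was called for 9 Aux/IAA loci and 3 ARFs (16.3% of all tested genes), and a fall of that size for 2 Aux/IAA loci and 4 ARFs (16.8%). Members and family labels were not tested as a set.

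**Figure D1:**
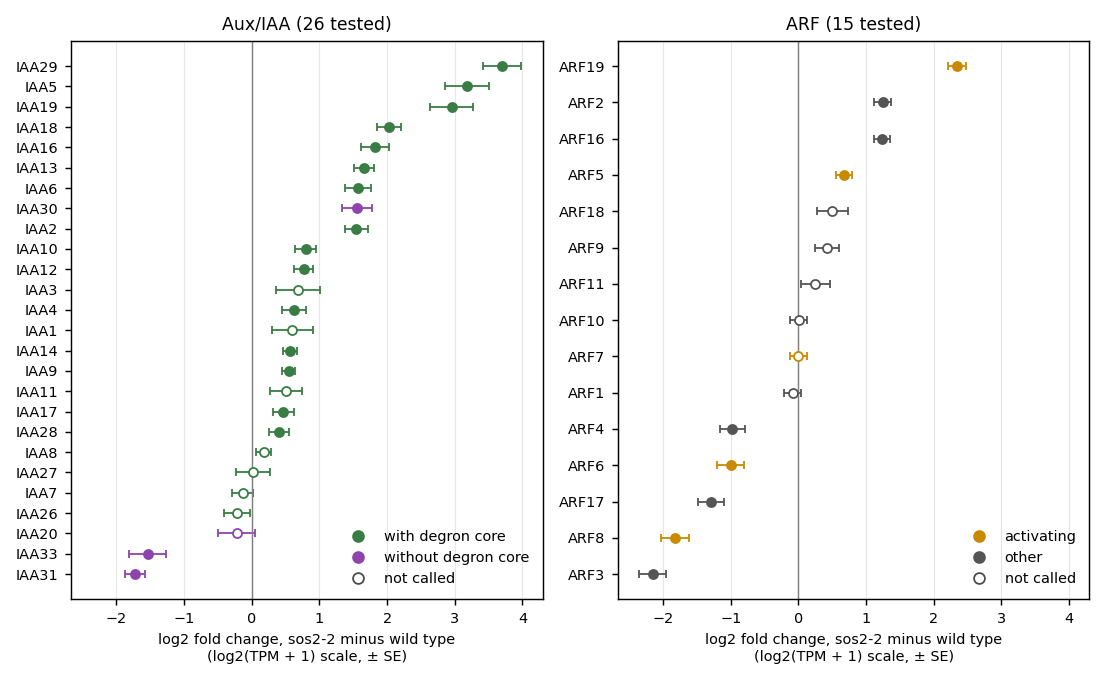
Log2 fold change (sos2-2 minus wild type, log2(TPM + 1) scale) of the 26 tested Aux/IAA loci on the left and the 15 ARF loci on the right, with bars for the standard error. Filled points passed an adjusted p of 0.05 and open points did not; among Aux/IAA loci with the degron core 15 filled points lie above 0 and 0 below it.

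Calls were also counted by the presence of the degron core. Of the 23 loci with the degron core 22 were tested, and 15 rose and 0 fell, with 7 not called. Of the 6 loci without it, IAA30 rose, IAA31 and IAA33 fell, IAA20 was not called, and IAA32 and IAA34 lay below the filter. Of all tested genes 31.3% rose and 34.1% fell. IAA5 and IAA6 among the degron rises passed the filter on low values only through sos2-2. IAA33, among the noncanonical falls, passed it only through wild type. These counts therefore describe the tested loci only, and a difference between the sets was not tested.

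The 3 largest log2 fold changes of the family were those of IAA29, IAA5 and IAA19. IAA29 (AT4G32280, chromosome 4, 15583332 to 15584903), a degron member known in seedlings as a target of light-signalling PIF factors, was at 1.3, 1.45 and 1.43 TPM in wild type and 49.2, 22.9 and 24.2 TPM in sos2-2. The genotypes did not overlap, and sos2-2 replicate 1 stood above the other sos2-2 samples. The ratio of means was 23.0 and the log2 fold change 3.70 (SE 0.28, adjusted p = 4.49e-05, limma).

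IAA5 (AT1G15580, chromosome 1, 5365512 to 5366497), an early auxin-induced member, was at 0.133, 0.745 and 1.67 TPM in wild type and 15.8, 11.3 and 18.0 TPM in sos2-2. All 3 sos2-2 values exceeded every wild-type value. The ratio of means was 17.7, or 34.3 without wild-type replicate 3, the highest of the wild-type samples (log2 fold change 3.18, SE 0.32, adjusted p = 0.000145). IAA19 (MSG2; AT3G15540, chromosome 3, 5264001 to 5265695), the repressor known to act with ARF7 in hypocotyl bending, was at 10.2, 12.5 and 12.5 TPM in wild type and 155, 58.8 and 99.8 TPM in sos2-2. The sos2-2 samples spread widely but lay apart from wild type (8.93-fold, log2 fold change 2.95, SE 0.32, adjusted p = 0.000195). IAA6 (SHY1), the closest relative of IAA19 by sequence, was at 0.421 ± 0.220 TPM and 3.20 ± 0.46 TPM (SD, n = 3), a log2 fold change of 1.57 (SE 0.19, adjusted p = 0.000291). IAA15, the remaining member of that sequence group (A2), was below the filter. It was listed at 0, 0 and 0.107 TPM in wild type, against 1.44, 0.592 and 0.372 TPM in sos2-2.

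Abundant members rose as well, by smaller ratios but by more transcript. IAA2 (AT3G23030, chromosome 3, 8180646 to 8182095), an auxin-induced member widely used as a reporter of auxin response in roots, was at 201, 255 and 244 TPM in wild type and 545, 720 and 800 TPM in sos2-2. The lowest sos2-2 value was above the highest wild-type value (2.95-fold, log2 fold change 1.55, SE 0.17, adjusted p = 0.0002). IAA16 (AT3G04730, chromosome 3, 1288155 to 1290891), of the same sequence group as IAA7, IAA14 and IAA17, was at 103, 141 and 140 TPM in wild type and 547, 347 and 480 TPM in sos2-2. Its genotypes were likewise apart (3.59-fold, log2 fold change 1.82, SE 0.20, adjusted p = 0.000209). IAA2 had the highest mean of the family in sos2-2. IAA2 and IAA16 made up 16.1% and 8.83% of all Aux/IAA transcript in wild type and 24.5% and 16.3% in sos2-2. IAA9, a repressor known in leaf development, was the most abundant member in wild type at 310 ± 7 TPM and rose to 453 ± 6 TPM in sos2-2 (0.55 on the log2 scale, SE 0.10, adjusted p = 0.00186). Its sos2-2 level did not differ from that of IAA16 beyond the spread of IAA16 (458 ± 102 TPM), which was the lower of the pair in sos2-2 replicate 2.

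**Figure D2:**
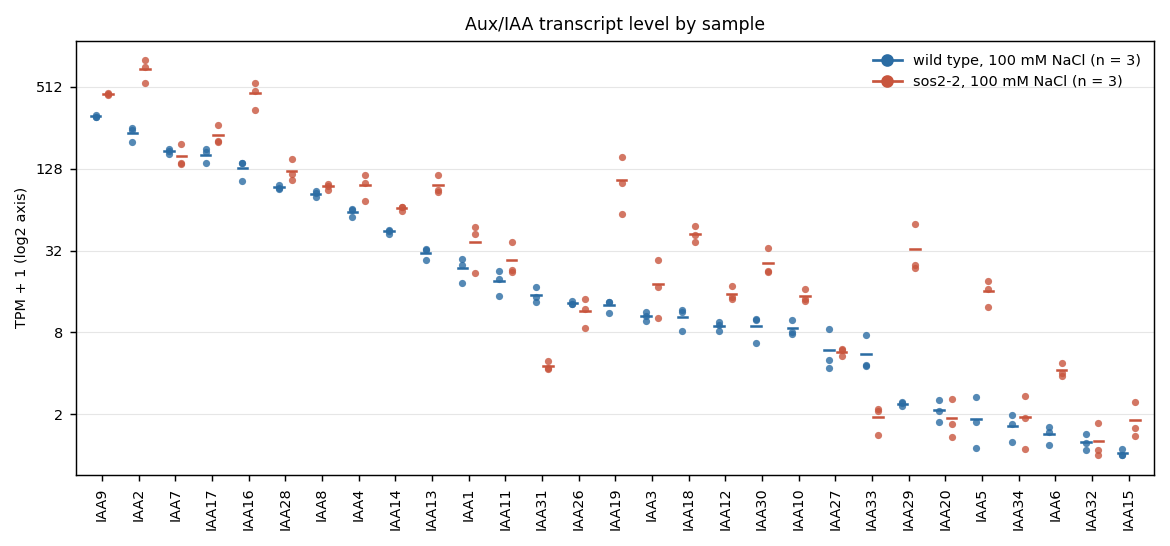
Transcript level of each of the 29 Aux/IAA loci (TPM + 1, log2 axis) in the 3 wild-type and 3 sos2-2 samples, ordered by the wild-type mean. Points are samples and short lines are means; IAA2 has the highest mean in sos2-2, and IAA29, IAA5 and IAA19 rise farthest above their wild-type values.

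IAA13 and IAA18 completed the degron members with large rises. IAA13 (AT2G33310, chromosome 2, 14113025 to 14116089), which acts beside IAA12 in the embryo, was at 26.1, 31.2 and 31.6 TPM in wild type and 114, 85.9 and 88.6 TPM in sos2-2. IAA18 (AT1G51950, chromosome 1, 19305081 to 19307518), known from a mutant with few lateral roots, was at 7.21, 10.7 and 10.3 TPM in wild type and 35.9, 47.2 and 40.4 TPM in sos2-2. For both, every sos2-2 sample was above every wild-type sample, with ratios of 3.24 (log2 fold change 1.66, SE 0.15, adjusted p = 7.63e-05) and 4.38 (2.03, SE 0.18, adjusted p = 6.85e-05). The gene AT2G33300 overlaps IAA13 on the opposite strand by 1176 bases and was listed at 0 in 5 samples and at 0.138 TPM in the other.

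IAA14 and IAA12, named above with their ARF partners in the root, changed less than IAA13 and IAA18. IAA14 (SLR; AT4G14550, chromosome 4, 8347822 to 8350263), which blocks lateral root initiation when stabilised, was at 41.4, 43.6 and 44.6 TPM in wild type and 65.4, 61.9 and 65.8 TPM in sos2-2. The replicates were tight and the genotypes apart (1.49-fold, log2 fold change 0.56, SE 0.10, adjusted p = 0.00182). IAA12 (BDL; AT1G04550, chromosome 1, 1240294 to 1242157), the partner of ARF5 in embryonic root formation, was at 8.10, 7.21 and 8.59 TPM in wild type and 16.5, 13.5 and 13 TPM in sos2-2. All sos2-2 samples were higher (1.80-fold, log2 fold change 0.77, SE 0.14, adjusted p = 0.00201).

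IAA17 (AXR3; AT1G04250, chromosome 1, 1136078 to 1138663), whose stabilised form alters root gravitropism and root hairs, was at 139, 176 and 170 TPM in wild type and 267, 204 and 202 TPM in sos2-2. IAA28 (AT5G25890, chromosome 5, 9033204 to 9035140), which acts in the founder cells of lateral roots, was at 96.9, 89.2 and 91.2 TPM in wild type and 149, 116 and 105 TPM in sos2-2. For both genes the groups did not overlap, and sos2-2 replicate 1 was the highest sample. IAA17 passed the threshold at a log2 fold change of 0.47 (SE 0.16, adjusted p = 0.0326), but missed it when 1 sample was left out: the adjusted p was 0.11 without wild-type replicate 1, 0.0698 without wild-type replicate 3 and 0.0707 without sos2-2 replicate 1. IAA28 passed narrowly (0.40, SE 0.15, adjusted p = 0.0466), and 8 alternatives, with adjusted p between 0.0542 and 0.128, ended that call.

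IAA3 (SHY2; AT1G04240, chromosome 1, 1128149 to 1129689), the repressor known to set the size of the root meristem at the crossing of auxin and cytokinin, was at 8.68, 9.63 and 10.3 TPM in wild type and 26.2, 9.14 and 16.3 TPM in sos2-2. The genotypes overlapped, since sos2-2 replicate 2 lay within the wild-type range, and the gene was not called (log2 fold change 0.68, SE 0.33, adjusted p = 0.103). Without that replicate the log2 fold change was 1.04 (adjusted p = 0.00461). IAA3 shares 640 bases with AT1G04230 on the opposite strand, which was at 9.93 to 12.4 TPM in wild type and 19.7 to 23.3 TPM in sos2-2. The strand setting of the quantification is not stated in the labels, so the values of IAA3 are uncertain.

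IAA4, IAA10 and the members that were not called made up the rest of the degron loci. IAA4, the closest relative of IAA3, rose from 60.6 ± 4.1 TPM to 95.5 ± 20.6 TPM (SD, n = 3; adjusted p = 0.0141, and 0.0536 without sos2-2 replicate 3). IAA10 rose from 7.54 ± 1.1 TPM to 13.8 ± 1.7 TPM (adjusted p = 0.00241). The 7 degron members tested and not called were IAA1, IAA3, IAA7, IAA8, IAA11, IAA26 and IAA27, with log2 fold changes from -0.22 for IAA26 to 0.68 for IAA3. IAA1 (AXR5) was at 17.4, 26.6 and 24.0 TPM in wild type and 21.0, 46.4 and 41.3 TPM in sos2-2, where replicate 1 fell within the wild-type range (adjusted p = 0.117, and 0.00302 without that replicate). IAA7 (AXR2), whose stabilised form gives agravitropic roots, was at 171 ± 9 TPM and 157 ± 31 TPM (SD, n = 3; adjusted p = 0.462).

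The 6 noncanonical members are thought to escape auxin-driven degradation through TIR1. IAA30 (AT3G62100, chromosome 3, 22995686 to 22996809) was at 5.74, 9.0 and 8.88 TPM in wild type and 21.4, 21.2 and 32.6 TPM in sos2-2. The genotypes did not overlap (3.19-fold, log2 fold change 1.55, SE 0.23, adjusted p = 0.000713). IAA31 (AT3G17600, chromosome 3, 6019973 to 6021147) went the other way, from 13.5, 16.3 and 12.3 TPM in wild type to 3.95, 3.27 and 3.35 TPM in sos2-2. All sos2-2 values were below all wild-type values, and wild type was 3.99-fold higher (log2 fold change -1.73, SE 0.15, adjusted p = 7.25e-05).

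IAA33, a member reported to bind ARF10 and ARF16 in the root stem cell niche, was at 6.62, 3.52 and 3.59 TPM in wild type and 0.409, 1.18 and 1.11 TPM in sos2-2. It fell in every sos2-2 sample relative to every wild-type sample (log2 fold change -1.54, SE 0.27, adjusted p = 0.00183). IAA20 was at 1.14 ± 0.40 TPM and 0.874 ± 0.623 TPM (SD, n = 3; adjusted p = 0.499), and IAA32 and IAA34 averaged under 1 TPM in both genotypes. The summed level of the 6 noncanonical members was 26.7 to 31.0 TPM in wild type and 27.3 to 39.3 TPM in sos2-2. These sums overlapped, in contrast to the sums of the whole family.

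Among the 15 listed ARFs the largest rise was that of an activator. ARF19 (AT1G19220, chromosome 1, 6627683 to 6633133), which drives lateral root formation together with ARF7, was at 10.3, 8.53 and 9.79 TPM in wild type and 56.7, 44.9 and 56.4 TPM in sos2-2. The lowest sos2-2 sample was far above the highest wild-type sample (5.52-fold, log2 fold change 2.35, SE 0.14, adjusted p = 1.64e-05). ARF7 (NPH4; AT5G20730, chromosome 5, 7016445 to 7022179), its closest relative, was at 17.5, 15.5 and 16.3 TPM in wild type and 14.3, 17.2 and 17.8 TPM in sos2-2. These values overlapped entirely (log2 fold change -0.01, SE 0.13, adjusted p = 0.976). The ratio of ARF19 to ARF7 was 0.588, 0.549 and 0.600 in wild type and 3.96, 2.61 and 3.16 in sos2-2, so the less abundant gene of the pair in wild type was the more abundant one in sos2-2. ARF7 shares 254 bases with AT5G20720 on the opposite strand, which was at 280 to 305 TPM in wild type and 141 to 215 TPM in sos2-2, so the level of ARF7 carries the same uncertainty about strand as that of IAA3.

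ARF5 (MONOPTEROS; AT1G19850, chromosome 1, 6886669 to 6891404), the activator required to form the embryonic root, was at 7.46, 7.70 and 8.08 TPM in wild type and 13, 13.5 and 12.2 TPM in sos2-2. The replicates were close and the genotypes apart (1.67-fold, log2 fold change 0.67, SE 0.12, adjusted p = 0.00163). ARF6 and ARF8, which promote flower maturation and adventitious rooting and share the miR167 site shown above, both fell. ARF6 (AT1G30330, chromosome 1, 10685822 to 10690988) was at 18.7, 12.9 and 17.5 TPM in wild type and 5.91, 9.51 and 7.71 TPM in sos2-2. ARF8 (AT5G37020, chromosome 5, 14629453 to 14634454) was at 12.3, 7.22 and 11.2 TPM in wild type and 2.04, 2.25 and 2.05 TPM in sos2-2. Neither gene's genotypes overlapped, and wild type was 2.12-fold higher for ARF6 (log2 fold change -1.0, SE 0.20, adjusted p = 0.00339) and 4.85-fold higher for ARF8 (-1.82, SE 0.20, adjusted p = 0.000202).

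**Figure D3:**
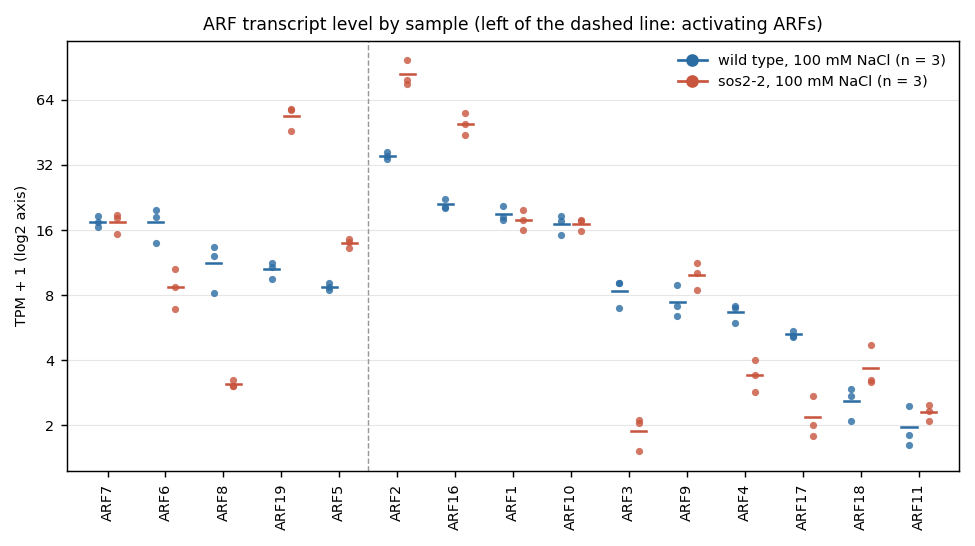
Transcript level of each of the 15 ARF loci (TPM + 1, log2 axis) in the 3 wild-type and 3 sos2-2 samples, with the 5 activating ARFs left of the dashed line and each set ordered by the wild-type mean. Points are samples and short lines are means; ARF19 rises above ARF7 in sos2-2, while ARF8 and ARF3 fall farthest.

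Among the 10 other ARFs 2 rose, 3 fell and 5 were not called, where 31.3% of all tested genes rose and 34.1% fell. ARF2 (AT5G62000, chromosome 5, 24910191 to 24915395), a repressor known for its effect on seed size and senescence, was at 35.6, 34.0 and 32.9 TPM in wild type and 74.7, 77.8 and 96.4 TPM in sos2-2. ARF16 (AT4G30080, chromosome 4, 14703065 to 14706354), which with ARF10 limits stem cells and forms the root cap, was at 21.2, 19.5 and 19.3 TPM in wild type and 42.8, 48.4 and 54.7 TPM in sos2-2. Both lay wholly above wild type, by 2.43-fold each (log2 fold change 1.25, SE 0.13, adjusted p = 0.000141 for ARF2; 1.24, SE 0.12, adjusted p = 0.000126 for ARF16). ARF10, the partner of ARF16, was at 16.1 ± 1.8 TPM in wild type and 16.1 ± 1.1 TPM in sos2-2 (SD, n = 3; log2 fold change 0.00, SE 0.13, adjusted p = 0.988).

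ARF3 (ETTIN; AT2G33860, chromosome 2, 14325206 to 14328978), which acts in organ polarity with ARF4, fell from 8.10, 5.98 and 8.10 TPM in wild type to 0.516, 1.11 and 1.05 TPM in sos2-2. ARF4 fell from 5.97, 4.96 and 6.15 TPM to 1.85, 3.01 and 2.41 TPM. ARF17 fell from 4.46, 4.14 and 4.19 TPM to 0.793, 1.73 and 1.01 TPM. In all 3 genes no sos2-2 value reached a wild-type value (log2 fold changes -2.15, -0.98 and -1.30, adjusted p = 9.11e-05, 0.00211 and 0.000811). ARF1, ARF9, ARF11 and ARF18, the rest of this set, had log2 fold changes from -0.08 for ARF1 to 0.50 for ARF18. They were not called (adjusted p between 0.0742 and 0.59). Under some alternatives 2 of them passed. ARF9 did so without wild-type replicate 1 (adjusted p = 0.0403), with sample weights (0.0384) and, at the limit, with TMM-type factors (0.05 after rounding). ARF18, whose genotypes did not overlap, did so with quantile normalization (0.0409).

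Read by small RNA, the miR160 targets split: ARF16 rose, ARF10 was not called and ARF17 fell. The miR167 targets ARF6 and ARF8 both fell. ARF2, ARF3 and ARF4 are the known targets of the trans-acting small RNAs from TAS3, and of these ARF2 rose while ARF3 and ARF4 fell. The mRNA table used here held no row for the TAS3, MIR160, MIR167 or MIR390 precursors, so they were not analysed. The table held 6 protein genes of this pathway, of which 1 rose and 3 fell, beside 31.3% and 34.1% of all tested genes. RDR6, the polymerase that makes the double-stranded TAS3 precursor, fell from 9.18, 6.51 and 8.70 TPM to 1.46, 2.84 and 2.45 TPM, with no overlap (log2 fold change -1.50, SE 0.22, adjusted p = 0.000667). AGO1, the slicer loaded with most microRNAs, rose from 53.7 ± 7.2 TPM to 82.4 ± 5.2 TPM (SD, n = 3; adjusted p = 0.00465). SGS3 and DCL4 also fell (adjusted p = 0.0212 and 0.0428), but the count of 3 falls dropped to 1 without wild-type replicate 1, wild-type replicate 3 or sos2-2 replicate 3.

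Summed over the family, Aux/IAA transcript was 1330, 1517 and 1494 TPM in wild type and 2926, 2624 and 2866 TPM in sos2-2, a ratio of means of 1.94. ARF transcript was 190.1, 159 and 175 TPM in wild type and 262, 265 and 294 TPM in sos2-2, a ratio of 1.57. Neither sum overlapped between genotypes. The ratio of Aux/IAA to ARF transcript was 7.0, 9.52 and 8.52 in wild type and 11.2, 9.90 and 9.74 in sos2-2, and here the highest wild-type sample came close to the lowest sos2-2 sample. These sums are descriptions and carry no test.

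Within the ARFs, the sums of the activating and of the other ARFs were higher in sos2-2 by ratios of 1.52 and 1.59. Activating ARF transcript was 66.3, 51.9 and 62.8 TPM in wild type and 92.0, 87.4 and 96.2 TPM in sos2-2. Other ARF transcript was 124, 107 and 113 TPM in wild type and 170, 178 and 198 TPM in sos2-2. The ratio of activating to other was 0.536, 0.483 and 0.558 in wild type and 0.540, 0.492 and 0.486 in sos2-2, which overlapped. The activating sum rested on ARF19: without it the other 4 activators went from 50.8 ± 6.6 TPM to 39.2 ± 3.6 TPM (SD, n = 3). The sum of the 10 other ARFs rested less on 1 gene, at 1.23-fold without ARF2 against 1.59-fold with it.

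**Figure D4:**
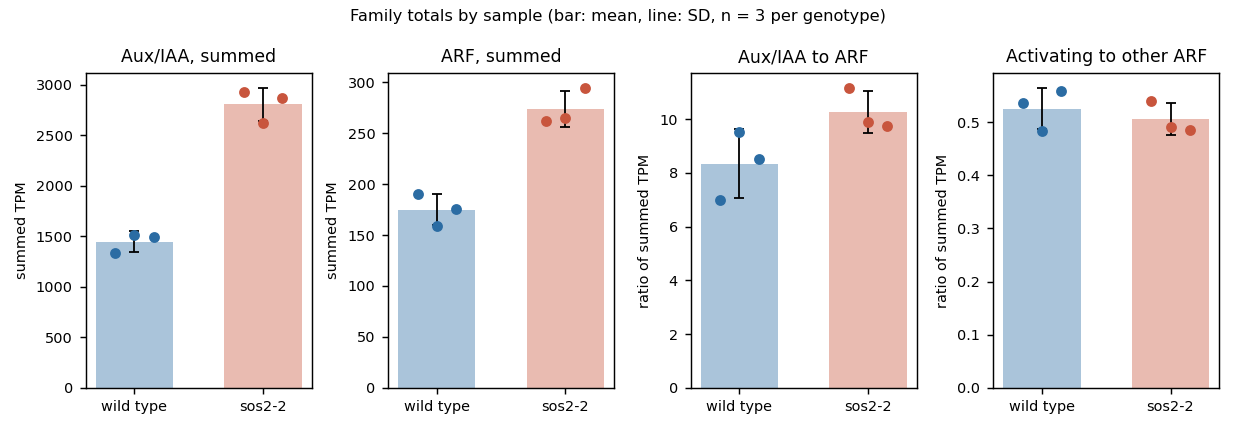
Summed TPM of the 29 Aux/IAA loci and of the 15 ARF loci, and the ratios of Aux/IAA to ARF and of activating to other ARF transcript, in each sample. Bars are means, lines are standard deviations (n = 3 per genotype) and points are samples; the first 3 quantities do not overlap between genotypes and the last one does.

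Closely related members were compared within samples by the difference of their log2(TPM + 1) values. Among the 14 closest pairs with both genes tested, by identity of the translated coding sequences, 11 had differences that did not overlap between genotypes. Levels of single genes did not overlap for 72.1% of all tested genes, which is not the same measure. A share over other gene pairs was not computed, so the count is not read as a trait of these pairs. IAA6, IAA20, ARF3 and ARF11 averaged under 1 TPM in 1 genotype and passed the filter only through the other. The count therefore describes the tested pairs only. The scale also compresses low genes: IAA6 and IAA19 are among the 11, with log2 fold changes of 1.57 and 2.95, although their ratios of mean TPM were 7.60 and 8.93. With 3 samples against 3 the two-sided exact permutation test cannot go below p = 0.1, which these 11 pairs reached, so no pair could pass 0.05. ARF7 and ARF19 (64.5% identical) lay farthest apart, with log2 fold changes of -0.01 and 2.35. IAA18 and IAA26 (67.7% identical) followed, at 2.03 and -0.22, and then IAA20 and IAA30 (84.9% identical), at -0.22 and 1.55. IAA20 lay close to the filter, at a mean of 1.14 TPM in wild type and 0.874 TPM in sos2-2. The pairs IAA3 and IAA4, ARF11 and ARF18, and IAA10 and IAA11 overlapped (exact permutation p = 0.8, 0.6 and 0.2). Quantification may assign reads shared by such copies to either gene, which makes the values of the closest pairs uncertain.

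By sequence group, group A2 holds IAA5, IAA6, IAA15 and IAA19, of which IAA15 was not tested and IAA5 and IAA6 passed the filter only through sos2-2, so its count says nothing about the group. In the other groups with the degron, against a share of 31.3% of all tested genes that rose and 34.1% that fell, the rises were 2 of 4 loci in A1, 3 of 4 in A3, 1 of 3 in A4, 3 of 4 in B1 and 2 of 3 in B2, with medians from 0.18 in A4 to 0.78 in B1. No locus of these groups fell. With 3 or 4 loci a group, these counts do not set the groups apart from each other or from all genes.

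Auxin response elements were looked for in the promoters, because most members with the degron rose. The letters TGTCTC or TGTCGG, on either strand, were searched in the 300 bases before the annotated start of each gene. Of 27443 promoters of that length 13% held TGTCTC, 4.9% held TGTCGG and 17.3% held at least 1 of them. Among Aux/IAA promoters 11 of 29 (37.9%) held TGTCTC, 6 (20.7%) held TGTCGG and 14 (48.3%) held either. Among ARF promoters 4 of 15 (26.7%) held either. Promoters of the 3 Aux/IAA members and the ARF with the strongest rises are shown with both motifs, or their reverse complements GAGACA and CCGACA, in capitals.
IAA5: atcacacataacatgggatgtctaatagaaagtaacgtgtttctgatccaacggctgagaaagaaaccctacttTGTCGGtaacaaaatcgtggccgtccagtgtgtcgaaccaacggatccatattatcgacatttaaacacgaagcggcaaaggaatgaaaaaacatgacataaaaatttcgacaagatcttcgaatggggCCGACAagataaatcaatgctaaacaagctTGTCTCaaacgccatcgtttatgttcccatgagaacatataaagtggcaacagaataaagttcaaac
IAA19: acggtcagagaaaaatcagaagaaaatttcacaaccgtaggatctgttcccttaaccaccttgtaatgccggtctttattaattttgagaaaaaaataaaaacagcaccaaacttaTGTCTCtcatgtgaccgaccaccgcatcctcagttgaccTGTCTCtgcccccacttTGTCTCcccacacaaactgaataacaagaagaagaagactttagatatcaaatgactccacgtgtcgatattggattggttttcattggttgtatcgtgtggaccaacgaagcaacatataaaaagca
IAA29: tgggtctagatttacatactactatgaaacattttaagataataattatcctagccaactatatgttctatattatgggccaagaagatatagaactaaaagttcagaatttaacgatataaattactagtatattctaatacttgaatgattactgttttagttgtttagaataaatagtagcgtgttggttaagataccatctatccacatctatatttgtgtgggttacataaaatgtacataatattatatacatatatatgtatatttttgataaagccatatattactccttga
ARF19: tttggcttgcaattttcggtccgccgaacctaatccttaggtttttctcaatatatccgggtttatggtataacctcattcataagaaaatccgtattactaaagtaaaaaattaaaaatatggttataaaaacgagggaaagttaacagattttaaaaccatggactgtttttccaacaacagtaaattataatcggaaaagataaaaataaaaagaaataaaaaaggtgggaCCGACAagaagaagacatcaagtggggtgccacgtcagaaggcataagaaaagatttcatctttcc
They lie in TAIR10.1 at chr1:5366498-5366797, minus strand (IAA5), chr3:5263701-5264000, plus strand (IAA19), chr4:15583032-15583331, plus strand (IAA29) and chr1:6633134-6633433, minus strand (ARF19), each read on the strand of its gene. IAA5 held 1 TGTCTC and 2 TGTCGG, IAA19 held 3 TGTCTC, ARF19 held 1 TGTCGG and IAA29 held neither. Of the 14 Aux/IAA loci with either motif 12 were tested, and 7 rose and 0 fell, with a median log2 fold change of 1.16. Of the 15 with neither 14 were tested, and 9 rose and 2 fell, with a median of 0.53. Of all tested genes 31.3% rose and 34.1% fell. IAA5, IAA6 and IAA20 in the first set and IAA33 in the second passed the filter on low values through 1 genotype only. These counts and medians therefore describe the tested loci only. A motif match is a description of these letters, and the difference between the sets was not tested.

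The share of glutamine codons was counted over the whole coding sequence of each ARF, and the middle region named above was not measured on its own. This share was 15.3% in ARF7, 12.5% in ARF19, 10.4% in ARF6, 8.8% in ARF8 and 7.0% in ARF5, against 2.2% to 6.0% in the other ARFs. The order of these shares was not that of the changes, since ARF7 was not called, ARF19 rose and ARF6 and ARF8 fell. The leucine repeat LxLxL, through which Aux/IAA proteins bind TOPLESS, was encoded in every Aux/IAA locus but IAA33.

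Isoforms were compared on their own. Of 62 member transcripts with a mean of at least 1 TPM 28 rose and 7 fell, where 25.1% of all tested transcripts rose and 25.7% fell. Among the rises, isoform 1 of IAA5 and IAA6, isoform 2 of IAA2 and IAA3, and isoforms 1 and 2 of IAA29 averaged under 1 TPM in wild type. Among the falls, isoform 1 of IAA33, ARF3 and ARF17 and isoform 3 of ARF6 averaged under 1 TPM in sos2-2. All of these passed the filter through the other genotype only, so the counts describe the tested transcripts only. In 0 loci were isoforms called in opposite directions. Several loci nevertheless changed their mix. In ARF2 isoform 2 went from 12.8 to 48.5 TPM (log2 fold change 1.85, adjusted p = 8.29e-05), and its share of the locus rose from 33.1% to 40.2% across wild-type samples to 53.2% to 66.6% in sos2-2. Isoform 3 of ARF2, the larger one in wild type, was not called (adjusted p = 0.0596). In IAA7, which was not called as a locus, isoform 1 was not called (log2 fold change -0.36, adjusted p = 0.0974) while isoforms 2 and 3 rose (0.60 and 0.70, adjusted p = 0.0273 and 0.0127). The share of isoform 1 was 84.0% to 85.8% in wild type and 70.7% to 73.5% in sos2-2, without overlap.

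IAA8, also not called as a locus, had a rise of isoform 3 from 19.0 to 33.0 TPM (log2 fold change 0.74, adjusted p = 0.0103), and its isoform 1 was not called. In IAA14 isoform 2 rose (0.87, adjusted p = 0.00171) and the other 3 isoforms were not called. In IAA13 both main isoforms rose (1.44 and 1.95, adjusted p = 0.00194 and 0.000129), and in ARF5 both isoforms rose (0.64 and 0.57, adjusted p = 0.012 and 0.0421). In ARF6 isoform 3, which held 4.99% to 23.4% of the locus in wild type, was at or next to 0 in all sos2-2 samples (log2 fold change -1.54, adjusted p = 0.0091), while isoforms 1 and 2 did not pass (adjusted p = 0.0519 and 0.0624). In ARF1 and IAA26 no isoform was called. A value next to 0 can be a failed estimate, and isoforms of 1 locus share most of their reads.

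The genes upstream of the Aux/IAA proteins did not move as 1 block. Of the 6 auxin receptors 3 rose and 1 fell, beside 31.3% and 34.1% of all tested genes. TIR1, the founding receptor, went from 41.4, 45.4 and 45.4 TPM in wild type to 116, 88.1 and 111 TPM in sos2-2, with no overlap (2.39-fold, log2 fold change 1.23, SE 0.14, adjusted p = 0.000194). AFB1, known for rapid root responses, rose from 71.7 ± 7.3 TPM to 107 ± 7 TPM (SD, n = 3; adjusted p = 0.0043). AFB4 rose from 7.94 ± 0.68 TPM to 23.7 ± 14.9 TPM (adjusted p = 0.0145), a ratio of 2.99 that was 1.91 without sos2-2 replicate 1. AFB5, which like AFB4 binds the herbicide picloram, fell from 26.1 ± 0.7 TPM to 18.1 ± 0.4 TPM (adjusted p = 0.00314).

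The machinery around the receptors was lower or not called. Of 9 genes of the SCF ligase and its neddylation 0 rose and 4 fell. ASK2, an adaptor that holds the F-box protein, fell from 101 ± 10 TPM to 35.1 ± 4.1 TPM (-1.51 on the log2 scale, SE 0.13, adjusted p = 7.39e-05). RBX1A, the RING subunit, fell from 157 ± 4 TPM to 62.9 ± 5.1 TPM (-1.31, SE 0.11, adjusted p = 6.35e-05). Of the 5 TOPLESS corepressors, which Aux/IAA proteins recruit, 0 rose and 3 fell: TPL (log2 fold change -0.52, adjusted p = 0.015), TPR1 (-0.80, adjusted p = 0.00679) and TPR3 (-0.71, adjusted p = 0.00495). The share of all tested genes that fell was 34.1%, as given above, so 3 of 5 and 4 of 9 are small counts beside it.

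The TMK receptor kinases carry auxin signals from the cell surface and act on IAA32 and IAA34 in the apical hook. They rose at all 3 tested loci of 4, a small count beside the 31.3% of all tested genes that rose. TMK1 was at 20.0, 22.1 and 23.4 TPM in wild type and 112, 96.6 and 124 TPM in sos2-2, with every sos2-2 value above every wild-type value (5.08-fold, log2 fold change 2.29, SE 0.13, adjusted p = 1.52e-05). TMK4 rose from 37.5 ± 1.9 TPM to 129 ± 21 TPM (SD, n = 3; adjusted p = 5.79e-05), and TMK3 from 25.7 ± 0.6 TPM to 36.8 ± 1.1 TPM (adjusted p = 0.00282). TMK2 was next to 0 and was not tested.

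Downstream, 4 of 7 genes of lateral root initiation rose and 0 fell, beside 31.3% and 34.1% of all tested genes. These include known targets of ARF7 and ARF19. LBD29, a target of both, was at 2.38, 2.78 and 2.77 TPM in wild type and 260, 93.1 and 112 TPM in sos2-2, with sos2-2 replicate 1 far above the others (log2 fold change 5.27, SE 0.35, adjusted p = 2.97e-05). The ratio of means was 58.6 and 38.7 without that replicate. PUCHI, an AP2 factor of early lateral root primordia, was at 4.42, 4.04 and 4.52 TPM in wild type and 34.3, 27.0 and 27.2 TPM in sos2-2, which did not overlap (6.81-fold, log2 fold change 2.51, SE 0.14, adjusted p = 1.27e-05). LBD16, the target of both ARFs with the highest wild-type level among the listed LBD genes, rose from 17.9 ± 0.5 TPM to 42.6 ± 3.6 TPM (SD, n = 3; adjusted p = 8.45e-05), and LBD18 from 1.75 ± 0.41 TPM to 13 ± 6.3 TPM (adjusted p = 0.000794). GATA23, which acts in founder cells below IAA28, was at 1.79 ± 0.67 TPM and 0.977 ± 0.351 TPM and was not called (adjusted p = 0.112). Without wild-type replicate 2 the count of falls in this list was 1. LBD33 and LRP1 were not called either.

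**Figure D5:**
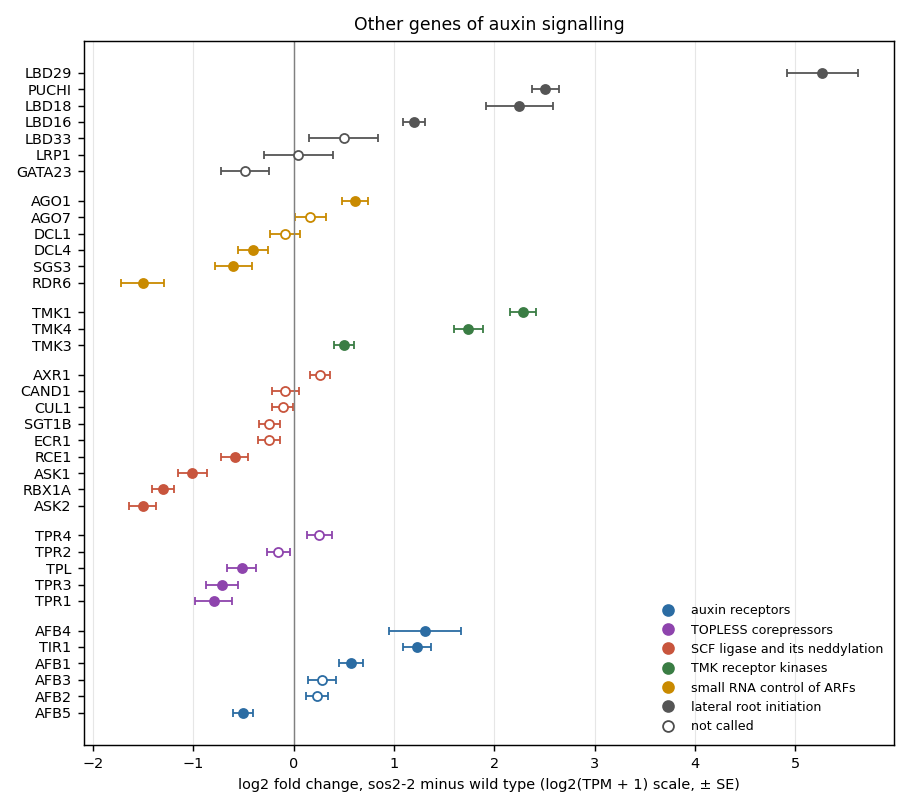
Log2 fold change (sos2-2 minus wild type, log2(TPM + 1) scale) of the tested genes of auxin signalling outside both families, grouped by role, with bars for the standard error. Filled points passed an adjusted p of 0.05; the TMK kinases and 4 lateral root genes lie to the right, and the SCF and TOPLESS genes that were called lie to the left.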

How the data were processed

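The deposited table holds TPM for 48359 transcripts in 6 samples, a unit recognised by its sum of 1000000 in each sample. Per the submitters' processing notes, the authors used the build TAIR10, sleuth 0.30.0 and kallisto 0.46.2, with no role or order given. Filters and strand settings are not stated there. TPM keeps no depth, so no counting interval or floor is given, and a change in abundant transcripts shifts the TPM of all others. The table held 0 columns of other samples.

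Transcripts were summed to 27655 loci. The genotypes were compared with limma 3.58.1 (R 4.3.3), applied to log2(TPM + 1) with genotype as the only term, a variance trend and robust estimation, for the 19527 loci with a mean of at least 1 TPM. P-values were adjusted over these loci by the Benjamini-Hochberg method and called under 0.05. Fold changes on this scale understate the change of low genes, and ratios are ratios of mean TPM. The fit was tested on simulated data. Single transcripts were fitted the same way. The log2 difference of the closest pairs was tested by exact permutation, two-sided.

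The members, the gene lists, the markers and the tests were chosen with earlier results of these data known. Values in every sample are given for called members that changed by at least 1 on the log2 scale and had a mean of at least 5 TPM in 1 genotype, and for ARF5, ARF7, ARF19, IAA3, IAA12, IAA14, IAA17 and IAA28. The same values for IAA1, IAA15, IAA33, ARF4 and ARF17 were added after they were seen. From each pathway list the called genes with the 2 smallest p are named, and any gene of a list of 6 or fewer may be. LBD16, LBD18, GATA23, LBD33 and LRP1 were named after their values were seen. Isoforms are named where the main one holds under 80% of its locus.

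Sequences, positions and gene models come from the RefSeq annotation and genome of TAIR10.1, for the isoform with the highest mean TPM, and no coordinate was taken from the deposited table. Alternatives changed the filter (none, or 5 TPM), the pseudocount (0.1 or 5), the scaling (TMM-type factors, quantiles), the variance model or the sample weights, added the replicate number, or left out each sample or the most abundant member. Figures were drawn in Python 3.11.15.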

Additional observations from a re-analysis of the deposited data

How the results depend on the processing

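Under every alternative run more Aux/IAA loci rose than fell. With a filter at a mean of 5 TPM, which tests fewer members, 1 Aux/IAA locus fell (2 in the reported result), 2 ARFs fell (5 reported), 0 other ARFs fell (3 reported) and 3 member transcripts fell (7 reported). Without the most abundant member of each set (IAA2 in Aux/IAA, ARF2 in ARF and other ARF, ARF19 in activating ARF) the ratio of summed TPM, sos2-2 over wild type, was 1.74 for Aux/IAA, 1.36 for ARF, 0.771 for activating and 1.23 for other ARFs, and that of activating to other ARF transcript was 0.626 (0.962 reported).

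Leaving out any 1 sample moved none of the reported family counts by over 1.5 times. Of the changes of single members under all alternatives, 584 kept their side of the threshold and direction, 13 lost and 9 gained a call, and 0 reversed while called. Deviations of same-numbered samples correlated at 0.177, 0.05 and 0.058, within the range of differently numbered samples (-0.197 to 0.182). With so few pairs this does not settle whether the replicate number pairs the samples, and the reported result does not use it. With the replicate block 6011 genes rose and 6536 fell, the call of IAA17 was lost (adjusted p = 0.0628) and IAA1 was called (adjusted p = 0.0147). The median over the ARFs (0.00 reported) ran from -0.08 with quantile normalization to 0.21 with the filter at 5 TPM, where fewer ARFs are tested, so no direction is given for it. Sample weights were fitted gene by gene, since the likelihood fit did not converge. Precision is limited by 3 samples per genotype and by the unknown depth, which matters most for members under about 5 TPM.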
